A study of Mus musculus with 12 samples.

Results

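The presynaptic vesicle and release machinery was followed here as 49 genes, chosen by name from the deposited expression table. They encode calcium sensors, vesicle membrane proteins, SNARE proteins and their regulators, active zone proteins, vesicular glutamate transporters and proteins of vesicle retrieval. Each of the 49 had a single row among the 51912 genes of the table, and 46 had a mean of at least 1 TPM (the length-corrected share of transcripts) over all libraries, the minimum for testing. Syt2, Syt12 and Unc13c were below it. The cells were primary cortical neurons from C57BL/6J mouse embryos, kept for 48 h or 16 h with erinacine S at 1 µg/mL, a natural product that Hericium erinaceus, an edible fungus, makes in its mycelium, or with DMSO, its solvent. The 4 groups were erinacine S at 48 h, DMSO at 48 h, erinacine S at 16 h and DMSO at 16 h, with 3 libraries each and 12 libraries in all. Every culture was plated in serum and moved to Neurobasal medium with B27, and treatment began within hours of plating, so the time comparisons span the first days after dissociation. The series text calls the 3 libraries of a group independent repeats, without saying whether these were separate litters or separate dishes, so p-values speak only of the spread among them, part of which may be technical.

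A nerve terminal stores transmitter in small vesicles, docks them at the active zone and fuses them with the plasma membrane when calcium enters. Fusion is driven by SNARE proteins on the vesicle and the plasma membrane, is held and timed by complexins, Munc13 proteins and synaptotagmins, and is followed by retrieval of the vesicle membrane. Many of these proteins come from families of paralogs, and brain regions and stages of development differ in which paralog they use.

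The deposited values are TPM, scaled to a fixed total in each library, which keep no read depth, so depth and counting precision are unknown and the error given is the spread between libraries. TPM are scaled to gene length, so levels of different genes can be set side by side. Fold changes are on the log2(TPM + 1) scale, which understates changes of low genes, and come from 1 limma fit over all 12 libraries with Benjamini-Hochberg adjustment over 15623 genes. All 7 neuron markers, Rbfox3, Tubb3, Map2, Nefl, Nefm, Dcx and Stmn2, were detected in every library. Erinacine S 48 h replicate 1 stood apart from the other libraries. Its log2 values correlated at 0.980 and 0.981 with those of the other 2 libraries of its group, which correlated with each other at 0.995. A smaller gap was seen for erinacine S 16 h replicate 1, at 0.985 and 0.987, where the other 2 libraries correlated at 0.995. The DMSO 16 h libraries correlated at 0.987 to 0.99. Results that rest on erinacine S 48 h replicate 1 are given with and without it.

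**Figure D1:**
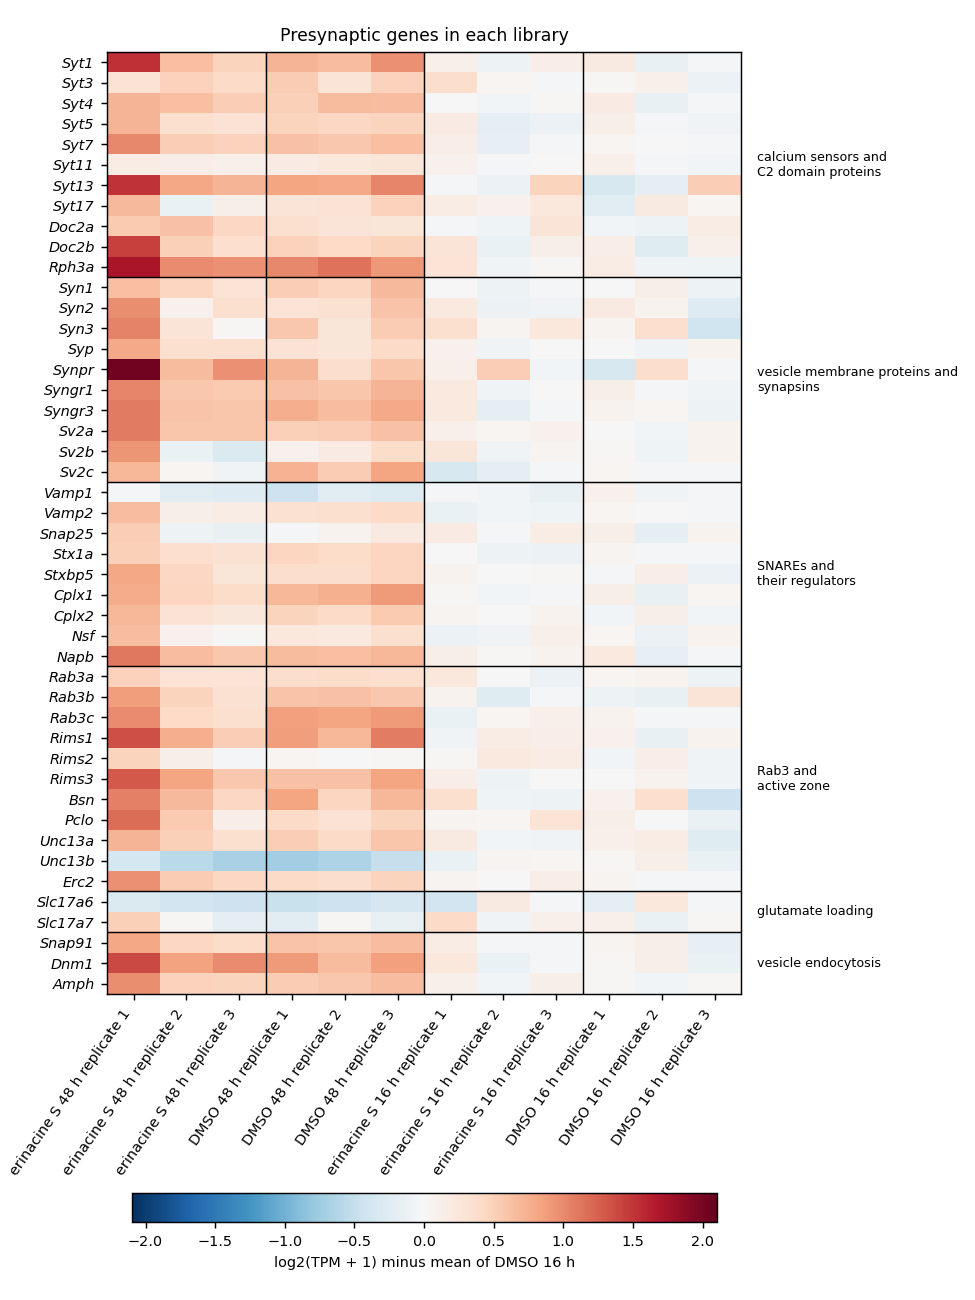
Difference of log2(TPM + 1) from the mean of DMSO 16 h for the 46 tested presynaptic genes (rows, by role) in each of the 12 libraries (columns, in the groups erinacine S 48 h, DMSO 48 h, erinacine S 16 h and DMSO 16 h). Most rows are above 0 (red) in all 6 libraries of 48 h, Unc13b, Vamp1 and Slc17a6 are below it, and erinacine S 48 h replicate 1 holds the deepest red column.

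By level, a few genes carried most of the signal. The vesicular SNARE Vamp2 had the highest mean over the 12 libraries, 436 TPM, which was 11.7% of the summed TPM of the 49 genes. It was followed by the plasma membrane SNARE Snap25 at 256 TPM, the synaptotagmin Syt4 at 232 TPM, the vesicle protein synaptophysin (Syp) at 199 TPM and the small GTPase Rab3a at 189 TPM. Syp, Rab3a and Syt11 (188 TPM) lay close together, and their order within the list was not tested. The first 9 genes made up 53.3% of the sum. In all, 14 genes averaged at least 100 TPM and 38 at least 10 TPM. At the other end, Syt2, the fast calcium sensor of hindbrain and inhibitory synapses, ranged from 0.323 to 1.30 TPM over the 12 libraries. Unc13c, the Munc13 paralog best known from cerebellar granule cells, was between 0.168 and 0.485 TPM. Syt12, a synaptotagmin that does not bind calcium, was between 0.178 and 1.01 TPM. None of these low genes was tested. The vesicular glutamate transporters were modest, with Slc17a6 (VGLUT2) at 30.8 TPM and Slc17a7 (VGLUT1), the main form of adult cortex, at 8.19 TPM.

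Most of the release machinery was higher at 48 h than at 16 h. Libraries of 48 h were always set against libraries of 16 h, so a harvest or library batch that followed time could not be told apart from time in culture. In erinacine S, 31 of the 46 tested genes rose between 16 h and 48 h, Unc13b fell and 14 did not pass, so that 69.6% were called, against 30.6% of all 15623 genes (15.1% upward and 15.5% downward). The median fold change of the 46 genes was 0.50, and that of all genes was -0.025. In DMSO, 31 genes rose, 3 fell and 12 did not pass, so that 73.9% were called, against 32.7% of all genes (16.1% upward and 16.6% downward). The median there was 0.47, and that of all genes was -0.027. Fold changes were above 0 for 41 of the 46 genes in erinacine S (46.8% of all genes) and for 42 in DMSO (46.7% of all genes). All 3 libraries of 48 h lay above all 3 of 16 h for 32 genes in erinacine S, as for 21.2% of all genes, and for 38 genes in DMSO, as for 24.1% of all genes. All 3 lay below for 1 gene in erinacine S, as for 23.7% of all genes, and for 3 genes in DMSO, as for 26.4% of all genes. In either direction, 44.9% of all genes did not overlap in erinacine S and 50.5% in DMSO.

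Summed over the 49 genes, TPM were 3843 to 5320.1 in erinacine S at 48 h, 4186 to 4484 in DMSO at 48 h, 2992 to 3275 in erinacine S at 16 h and 3014 to 3251 in DMSO at 16 h. In bulk RNA, fewer cells of a type and less RNA per cell cannot be told apart. Inhibitory neuron markers had no shared direction over the same interval. In each treatment 1 of the 7 rose and 1 fell, and fold changes were above 0 for 4 in erinacine S and 3 in DMSO. General neuron markers moved upward. In erinacine S 6 of the 7 rose, with summed TPM of 5253 to 5380.0 at 48 h and 3555 to 4191 at 16 h, and in DMSO 5 of the 7 rose, with 5107 to 5517 TPM at 48 h and 3349 to 4092 TPM at 16 h. Of the 7 oligodendrocyte lineage markers, 3 rose in erinacine S, where their sum was 66.5 to 187 TPM at 48 h and 63.1 to 96.2 TPM at 16 h. In DMSO 6 of them rose, with 201 to 233 TPM at 48 h and 59.6 to 108 TPM at 16 h. The astrocyte marker sum was 109 to 617 TPM at 48 h and 158 to 205 TPM at 16 h in erinacine S, and 472 to 563 TPM at 48 h and 183 to 209.5 TPM at 16 h in DMSO, where 1 of the 6 tested markers rose and 2 libraries of 16 h had 1 marker at 0. Of the 6 microglia markers tested, 4 fell in erinacine S and 1 in DMSO, and of the 9 markers of dividing cells and progenitors, 4 fell in erinacine S and 1 in DMSO. Of all genes, 15.1% rose and 15.5% fell in erinacine S, and 16.1% rose and 16.6% fell in DMSO. The DMSO shares were near or below these for astrocyte markers (16.7% called), microglia markers (16.7%) and markers of dividing cells and progenitors (11.1%). The part of these markers in the presynaptic result was not tested.

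**Figure D2:**
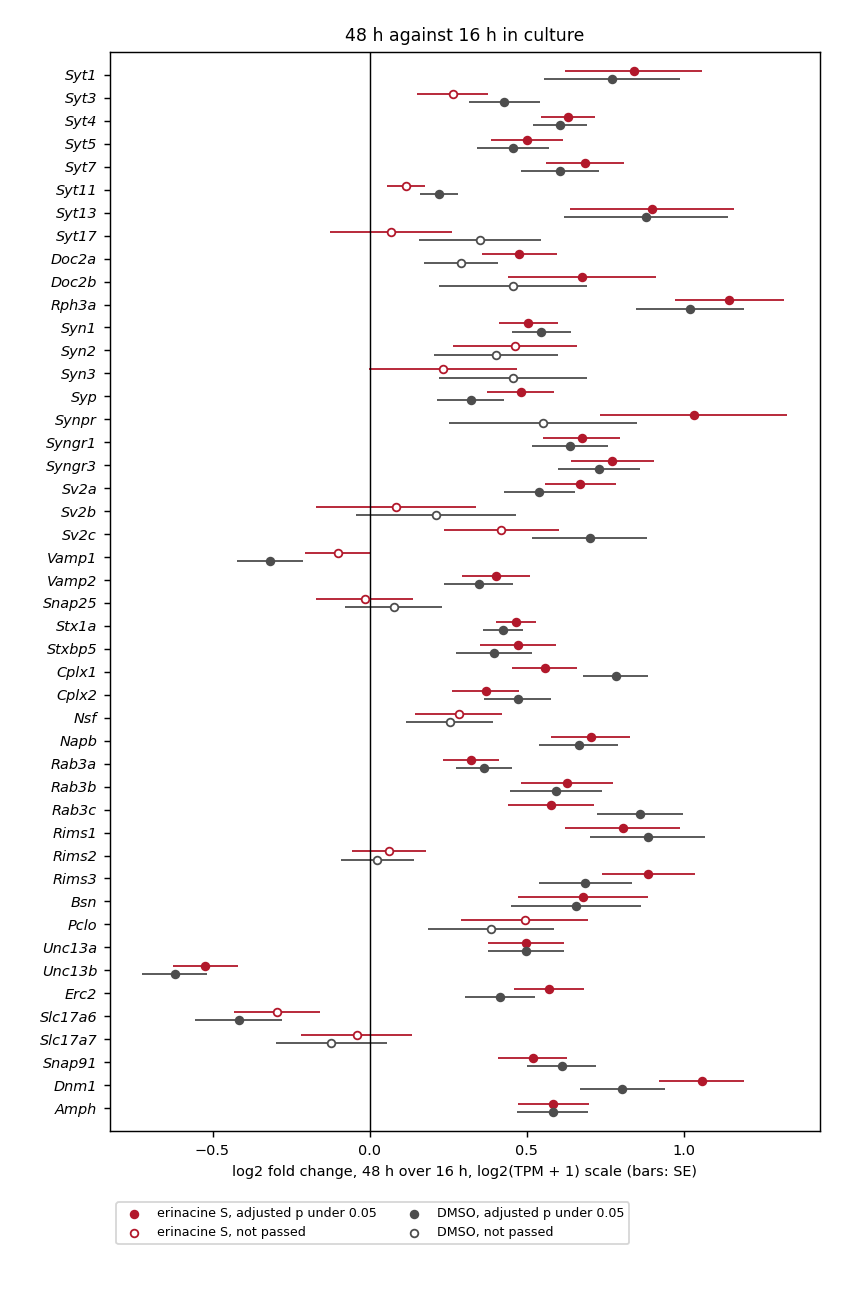
Log2 fold change of 48 h over 16 h on the log2(TPM + 1) scale (x axis) for each of the 46 tested presynaptic genes (y axis), in erinacine S (red) and DMSO (grey), with bars for the SE and filled points for a limma adjusted p under 0.05. Rph3a is among the points farthest to the right in both (1.15 in erinacine S and 1.02 in DMSO), and Unc13b is the one filled point left of 0 in erinacine S (-0.52).

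Most genes were called in both treatments. The 2 time comparisons use different libraries, but both rest on the spread estimated over all 12 libraries, so their calls are not independent. Of the 31 genes that rose in erinacine S, 28 (90.3%) also rose in DMSO, and these were 90.3% of the 31 that rose there. The same overlap over all genes was not taken, so the 90.3% cannot be read as particular to the presynaptic genes. Doc2a, Synpr and Doc2b passed in erinacine S and not in DMSO, and Sv2c, Syt3 and Syt11 in DMSO and not in erinacine S. Unc13b fell in both. The difference between the 2 time effects was tested for every gene and passed for none of the 46 by limma. None of the 46 had an unadjusted p under 0.05 in that test either, where 2.77% of all genes did and 0% passed after adjustment.

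The genes with the smallest p-values in DMSO came from different steps of the cycle. They include the complexin Cplx1, the SNARE Stx1a, the Rab3 GTPase Rab3c and the Munc13 protein Unc13b, the one of the 4 that fell. The 250 bases before the RefSeq start of these 4 genes are shown because these genes were called in both treatments and have a RefSeq start within 5 bases of the gene's start in the deposited table. They are the 3 with the smallest p in DMSO among those that rose and the 1 that fell, a choice made after the values were seen. Sequences are from RefSeq on GRCm38.p6, 5′ to 3′ on the gene's strand, with the start site just after the last base. Capitals mark letters of 8 motifs searched on both strands: the GC box GGGCGG, the cyclic AMP response element (CRE) TGACGTCA and its core TGACG, the CCAAT box CCAAT, the TATA box TATAAA, the left arm CAGCACC and the right arm GGACAGC of the RE1 element, and the EGR site GCGTGGGCG. The core lies within the full CRE.
Cplx1 (chr5:108550028-108550277, minus strand): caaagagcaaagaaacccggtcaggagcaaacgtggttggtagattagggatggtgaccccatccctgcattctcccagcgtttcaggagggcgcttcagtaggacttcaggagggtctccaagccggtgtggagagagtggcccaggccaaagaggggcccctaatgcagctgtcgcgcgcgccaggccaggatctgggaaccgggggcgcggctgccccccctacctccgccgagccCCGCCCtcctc
Stx1a (chr5:135023232-135023481, plus strand): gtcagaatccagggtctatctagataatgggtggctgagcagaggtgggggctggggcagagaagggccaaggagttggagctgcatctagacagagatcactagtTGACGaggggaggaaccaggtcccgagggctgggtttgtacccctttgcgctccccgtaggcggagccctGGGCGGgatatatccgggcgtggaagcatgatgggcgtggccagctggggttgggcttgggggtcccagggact
Rab3c (chr13:110280207-110280456, minus strand): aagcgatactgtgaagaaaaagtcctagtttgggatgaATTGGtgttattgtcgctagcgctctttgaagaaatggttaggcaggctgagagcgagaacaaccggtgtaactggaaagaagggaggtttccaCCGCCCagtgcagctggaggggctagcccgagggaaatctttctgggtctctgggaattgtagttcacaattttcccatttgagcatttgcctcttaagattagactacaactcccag
Unc13b (chr4:43058703-43058952, plus strand): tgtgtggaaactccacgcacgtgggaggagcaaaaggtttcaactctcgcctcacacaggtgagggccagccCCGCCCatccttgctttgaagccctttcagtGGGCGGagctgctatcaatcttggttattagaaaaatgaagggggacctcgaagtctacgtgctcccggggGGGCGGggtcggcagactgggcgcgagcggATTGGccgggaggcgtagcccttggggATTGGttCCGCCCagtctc

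All 4 windows hold at least 1 GC box, and that of Unc13b holds 4. Unc13b also has 2 CCAAT boxes and Rab3c has 1, while Stx1a has a CRE core. The GC content of the 4 windows was 64.8% for Cplx1, 62.0% for Stx1a, 47.6% for Rab3c and 60.8% for Unc13b. A promoter could be matched for 36 of the 49 genes, at the RefSeq start nearest the gene's start in the deposited table. That start lay 68793 bases away for Cplx2 and 2565 bases away for Syt11. Of these 36, 25 (69.4%) hold a GC box. For comparison, 1 promoter per gene symbol was taken, the one at the lowest coordinate, a rule unlike that for the 36. A GC box was in 32.7% of all 27025 promoters so taken and in 60.0% of the 10251 promoters of genes with a mean of at least 1 TPM here. The CCAAT box was in 8 (22.2%), against 34.2% of all and 36.5% of expressed-gene promoters. The TATA box was in 2 (5.6%), against 12.9% and 6.0%. The CRE core was in 6 (16.7%), against 17.6% and 27.2%, and the full CRE in 1 (2.8%), against 1.6% and 2.8%. The left RE1 arm was in 2 (5.6%), against 5.7% and 5.9%, the right RE1 arm in 0, against 5.2% and 6.2%, and the EGR site in 1 (2.8%), against 0.5% and 1.0%. Median GC content was 61.2% for the presynaptic promoters and 60.4% for expressed-gene promoters. These matches describe letters in a window and are not known binding sites.

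Among calcium sensors and other C2 domain proteins, 8 of 11 tested genes rose in erinacine S, 8 rose in DMSO and none fell in either. Syt4 (ENSMUSG00000024261, chr18:31437808-31447415), a synaptotagmin of dense core vesicles in neurons, was the most abundant. It had 301, 285 and 263 TPM in erinacine S at 48 h, against 185, 176 and 186 TPM at 16 h. Its values in DMSO were 259, 292 and 289 TPM at 48 h and 207, 165 and 180.0 TPM at 16 h. All 6 libraries of 48 h lay above all 6 of 16 h, and the fold change was 0.63 ± 0.086 (SE; limma adjusted p = 0.000372) in erinacine S and 0.61 ± 0.086 (SE; limma adjusted p = 0.000417) in DMSO.

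The calcium sensor of fast release, Syt1 (ENSMUSG00000035864, chr10:108497650-109010982), had 229, 122 and 109 TPM in erinacine S at 48 h, where replicate 1 was far above the other 2, against 83.7, 72.1 and 86.3 TPM at 16 h. DMSO cultures had 128, 123 and 152 TPM of Syt1 at 48 h, against 88.7, 70.4 and 76.3 TPM at 16 h. The times did not overlap, and the change was 0.84 ± 0.22 (SE; limma adjusted p = 0.0127) in erinacine S and 0.77 ± 0.22 (SE; limma adjusted p = 0.0179) in DMSO. Rph3a (ENSMUSG00000029608, chr5:120940499-121010092) encodes rabphilin, a Rab3 effector with C2 domains, and was among the genes with the largest fold changes in both treatments. Erinacine S cultures gave 132, 79.6 and 78.1 TPM at 48 h, against 48.6, 37.4 and 40.1 TPM at 16 h, a rise of 1.15 ± 0.17 (SE; limma adjusted p = 0.000713). DMSO cultures gave 80.5, 88.4 and 75.5 TPM at 48 h, against 44.3, 37.5 and 37.2 TPM at 16 h, a rise of 1.02 ± 0.17 (SE; limma adjusted p = 0.00119). For this gene 2 libraries of erinacine S at 48 h lay within the DMSO range of that time, and replicate 1 lay above it.

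Other sensors moved less evenly. Syt7, a high-affinity sensor tied to asynchronous release and facilitation, rose by 0.69 in erinacine S and 0.61 in DMSO. Syt5, another calcium-binding synaptotagmin, rose by 0.50 in erinacine S and 0.46 in DMSO. Syt13, which lacks calcium binding, was low, at 3.11 ± 1.33 TPM in erinacine S at 48 h, 2.65 ± 0.331 TPM in DMSO at 48 h, 1.17 ± 0.507 TPM in erinacine S at 16 h and 1.05 ± 0.681 TPM in DMSO at 16 h (SD, n = 3 each). It rose by 0.90 in erinacine S and 0.88 in DMSO. Doc2a and Doc2b, high-affinity sensors of spontaneous and asynchronous release, passed in erinacine S, with 0.48 ± 0.12 (SE; limma adjusted p = 0.0101) for Doc2a and 0.68 ± 0.24 (SE; limma adjusted p = 0.0476) for Doc2b, the second of which was named beyond the gene rule after its values were seen. In DMSO they had 0.29 ± 0.12 and 0.46 ± 0.24 (SE; limma adjusted p = 0.0774 and 0.156). Syt11, a synaptotagmin that does not bind calcium, had 0.12 ± 0.061 in erinacine S (SE; limma adjusted p = 0.166), which did not pass, and a small rise in DMSO, 0.22 ± 0.061 (SE; limma adjusted p = 0.016). Syt3, a high-affinity sensor, had 0.27 ± 0.11 in erinacine S (SE; limma adjusted p = 0.0972) and rose by 0.43 ± 0.11 (SE; limma adjusted p = 0.0135) in DMSO. Syt17 did not pass in either (0.069 ± 0.19 in erinacine S and 0.35 ± 0.19 in DMSO, SE).

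Of the 10 vesicle membrane proteins and synapsins, 6 rose in each treatment and none fell. Syn1 (ENSMUSG00000037217, chrX:20860511-20921004), which tethers vesicles in the reserve pool, had 209.8, 184 and 164 TPM in erinacine S at 48 h, against 133, 125 and 132 TPM at 16 h. In DMSO it had 194, 183 and 215 TPM at 48 h, against 134, 146 and 124 TPM at 16 h. The times did not overlap in either, and the change was 0.51 ± 0.094 (SE; limma adjusted p = 0.00224) in erinacine S and 0.55 ± 0.094 (SE; limma adjusted p = 0.00124) in DMSO. Its paralogs did not pass in either treatment, with 0.46 ± 0.20 for Syn2 and 0.24 ± 0.24 for Syn3 in erinacine S and 0.40 ± 0.20 and 0.46 ± 0.24 in DMSO (SE). Syngr3, a synaptogyrin of the vesicle membrane, averaged 135 ± 28.5 TPM in erinacine S at 48 h and 77.8 ± 10.9 TPM at 16 h (SD, n = 3 each), a rise of 0.77 ± 0.13 (SE; limma adjusted p = 0.0014). In DMSO it averaged 130.2 ± 7.16 TPM at 48 h and 78.1 ± 5.04 TPM at 16 h, a rise of 0.73 ± 0.13 (SE; limma adjusted p = 0.00163). Its paralog Syngr1 rose by 0.68 in erinacine S and by 0.64 in DMSO.

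The SV2 proteins, vesicle glycoproteins that bind synaptotagmin, were mostly Sv2a, which held 95.0% of their summed TPM in erinacine S at 48 h and 92.9% in DMSO at 48 h. It rose by 0.67 ± 0.11 (SE; limma adjusted p = 0.00128) in erinacine S and by 0.54 ± 0.11 (SE; limma adjusted p = 0.00379) in DMSO. Sv2b did not pass in either (0.085 ± 0.26 in erinacine S and 0.21 ± 0.26 in DMSO, SE). Sv2c had 0.42 ± 0.18 in erinacine S (SE; limma adjusted p = 0.103) and rose by 0.70 ± 0.18 (SE; limma adjusted p = 0.0129) in DMSO. Synaptoporin (Synpr), a relative of synaptophysin, had 37.5, 14.0 and 17.4 TPM in erinacine S at 48 h, where replicate 1 was far above the others, against 9.14, 12.5 and 8.10 TPM at 16 h, a rise of 1.03 ± 0.30 (SE; limma adjusted p = 0.0216). In DMSO its change was 0.55 ± 0.30 (SE; limma adjusted p = 0.175). Synaptophysin (Syp), named beyond the gene rule after its values were seen, rose by 0.48 ± 0.11 (SE; limma adjusted p = 0.00578) in erinacine S and by 0.32 ± 0.11 (SE; limma adjusted p = 0.0366) in DMSO.

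**Figure D3:**
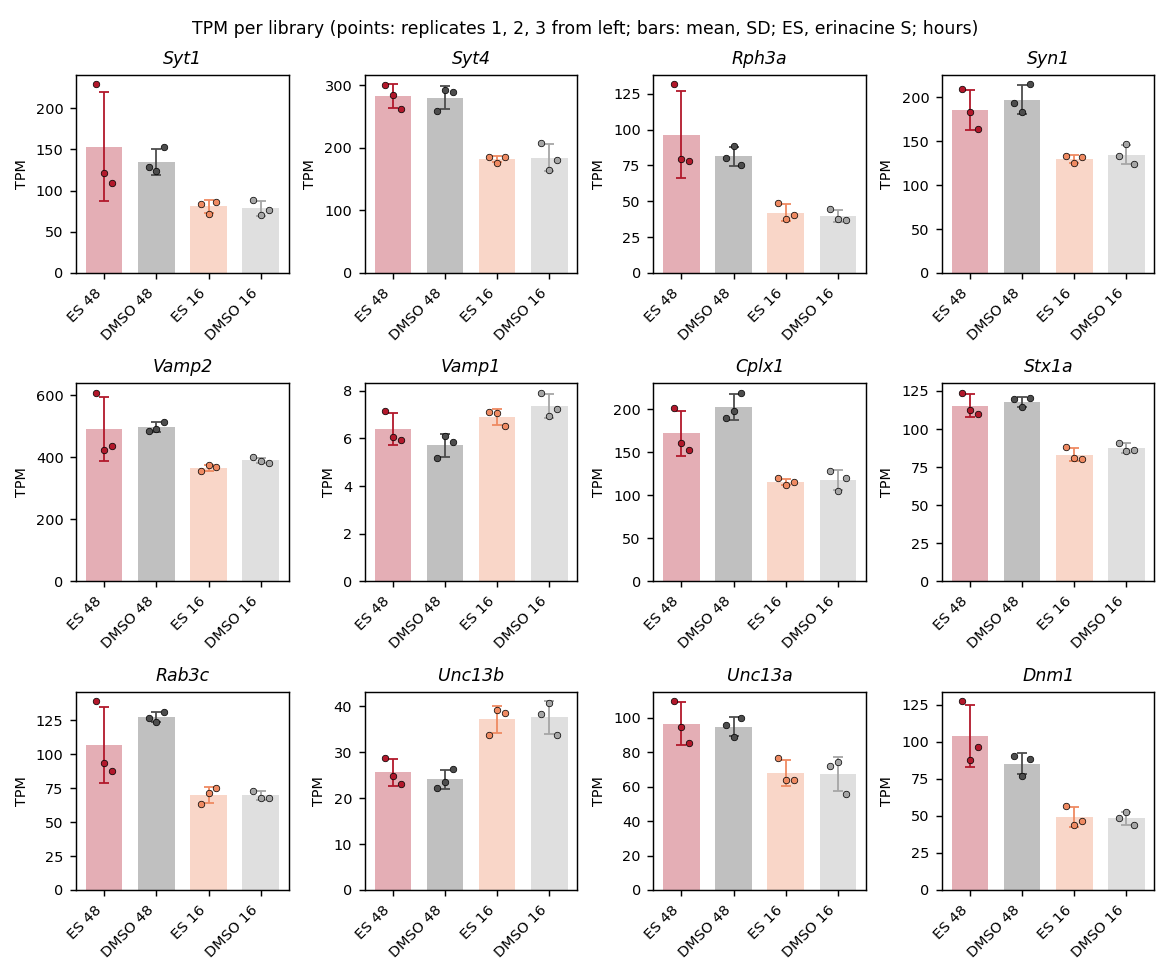
TPM of 12 presynaptic genes in each library (points, replicates 1 to 3 from left), with bars for the group mean and error bars for the SD (n = 3), in erinacine S at 48 h, DMSO at 48 h, erinacine S at 16 h and DMSO at 16 h (ES, erinacine S). Unc13b and Vamp1 are the 2 panels in which the DMSO libraries of 48 h are lower than those of 16 h.

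For SNAREs and their regulators, the same 6 of 9 tested genes rose in both treatments, and Vamp1 fell in DMSO. Cplx1 (ENSMUSG00000033615, chr5:108518554-108550024) encodes a complexin that clamps and then promotes fusion, and had the smallest p of the 46 genes in DMSO. In erinacine S it had 202, 161 and 153 TPM at 48 h, against 119.8, 112 and 115 TPM at 16 h, a rise of 0.56 ± 0.10 (SE; limma adjusted p = 0.00238). DMSO cultures had 190.4, 198 and 219.7 TPM of Cplx1 at 48 h, against 128, 105 and 120.3 TPM at 16 h, a rise of 0.78 ± 0.10 (SE; limma adjusted p = 0.000285). Replicates 2 and 3 of erinacine S at 48 h were below all DMSO libraries of that time. The paralog Cplx2 rose by 0.37 in erinacine S and by 0.47 in DMSO.

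Stx1a (ENSMUSG00000007207, chr5:135023482-135051100), the plasma membrane syntaxin, varied little between libraries. It had 124, 112 and 109.8 TPM in erinacine S at 48 h, against 88.2, 80.9 and 80.5 TPM at 16 h. In DMSO it had 119.7, 114 and 120.0 TPM at 48 h, against 91.1, 85.5 and 86.1 TPM at 16 h, and the times did not overlap in either. The rise was 0.47 ± 0.064 (SE; limma adjusted p = 0.000385) in erinacine S and 0.43 ± 0.064 (SE; limma adjusted p = 0.000568) in DMSO. Napb, the brain form of the SNAP adaptor that works with the ATPase Nsf to take SNARE complexes apart, rose by 0.70 in erinacine S and 0.67 in DMSO. Nsf itself did not pass (0.28 ± 0.14 in erinacine S and 0.26 ± 0.14 in DMSO, SE). Stxbp5 (tomosyn), which competes for syntaxin, rose by 0.47 in erinacine S and 0.40 in DMSO.

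Vamp2 (ENSMUSG00000020894, chr11:69088490-69092384), the main vesicular SNARE of forebrain synapses, had 609, 425 and 436 TPM in erinacine S at 48 h, against 355, 374 and 368 TPM at 16 h, a rise of 0.40 ± 0.11 (SE; limma adjusted p = 0.0163). DMSO cultures had 486, 490.1 and 515 TPM of Vamp2 at 48 h, against 400.0, 388 and 383 TPM at 16 h, a rise of 0.35 ± 0.11 (SE; limma adjusted p = 0.0301). Vamp1 (ENSMUSG00000030337, chr6:125215551-125245964), its paralog of spinal cord and brainstem synapses, was far lower. In erinacine S it had 7.15, 6.06 and 5.92 TPM at 48 h and 7.10, 7.06 and 6.52 TPM at 16 h, which overlapped, a change of -0.10 ± 0.10 (SE; limma adjusted p = 0.496). In DMSO it had 5.17, 6.10 and 5.87 TPM at 48 h, against 7.92, 6.95 and 7.22 TPM at 16 h, and its change was -0.32 ± 0.10 (SE; limma adjusted p = 0.0364). For DMSO, both were named beyond the gene rule after their values were seen. Snap25, the plasma membrane partner of both, had 346, 226 and 218 TPM in erinacine S at 48 h, against 274, 237 and 271 TPM at 16 h, and 235, 257 and 278 TPM in DMSO at 48 h, against 265, 211 and 255 TPM at 16 h. The times overlapped in both treatments. Its fold change was -0.015 ± 0.15 in erinacine S (SE; 95% interval -0.35 to 0.32) and 0.077 ± 0.15 in DMSO (SE; 95% interval -0.26 to 0.41).

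Of 11 tested Rab3 and active zone genes, the same 8 rose and Unc13b fell in both treatments, while Rims2 and Pclo did not pass in either. Rab3c (ENSMUSG00000021700, chr13:110054187-110280206), a GTPase of the vesicle surface, had 139, 93.5 and 87.7 TPM in erinacine S at 48 h, against 63.1, 71.7 and 74.9 TPM at 16 h, a rise of 0.58 ± 0.14 (SE; limma adjusted p = 0.00834). DMSO cultures had 127, 124 and 131 TPM of Rab3c at 48 h, against 73.1, 67.8 and 68.0 TPM at 16 h, a rise of 0.86 ± 0.14 (SE; limma adjusted p = 0.000818). The DMSO libraries of 48 h were tight, whereas replicate 1 of erinacine S was above them and the other 2 were below. Rab3a rose by 0.32 in erinacine S and 0.36 in DMSO, and Rab3b by 0.63 in erinacine S and 0.59 in DMSO.

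Unc13b (ENSMUSG00000028456, chr4:43058953-43264871), which encodes the priming factor Munc13-2, fell in both treatments. It had 28.8, 24.9 and 23.1 TPM in erinacine S at 48 h, against 33.8, 39.2 and 38.5 TPM at 16 h, and 22.3, 23.5 and 26.4 TPM in DMSO at 48 h, against 38.2, 40.8 and 33.8 TPM at 16 h. All 6 libraries of 48 h lay below all 6 of 16 h, with a fold change of -0.52 ± 0.10 (SE; limma adjusted p = 0.00333) in erinacine S and -0.62 ± 0.10 (SE; limma adjusted p = 0.0011) in DMSO. Its paralog Unc13a (Munc13-1), the main priming factor of cortical excitatory synapses, went the other way. Unc13a had 109.8, 95.0 and 85.2 TPM in erinacine S at 48 h, against 76.6, 63.9 and 63.7 TPM at 16 h, a rise of 0.50 ± 0.12 (SE; limma adjusted p = 0.00948). DMSO cultures had 96.1, 88.8 and 100.2 TPM of Unc13a at 48 h, against 72.1, 74.3 and 55.9 TPM at 16 h, a rise of 0.50 ± 0.12 (SE; limma adjusted p = 0.00885).

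The scaffolds around them were mixed. Rims1, a RIM protein that links Rab3 to the active zone, averaged 16.5 ± 5.42 TPM in erinacine S at 48 h and 8.74 ± 0.835 TPM at 16 h (SD, n = 3 each), a rise of 0.81 ± 0.18 (SE; limma adjusted p = 0.00675). In DMSO it averaged 16.2 ± 2.29 TPM at 48 h and 8.28 ± 0.885 TPM at 16 h, a rise of 0.89 ± 0.18 (SE; limma adjusted p = 0.00373). Rims3, a short RIM without the Rab3-binding domain, rose by 0.89 in erinacine S and 0.69 in DMSO. Rims2 had changes near 0, 0.062 ± 0.12 in erinacine S (95% interval -0.19 to 0.32) and 0.025 ± 0.12 in DMSO (95% interval -0.23 to 0.28). The large scaffold Bassoon (Bsn) rose by 0.68 ± 0.21 (SE; limma adjusted p = 0.0269) in erinacine S and by 0.66 ± 0.21 (SE; limma adjusted p = 0.0297) in DMSO. For its relative Piccolo (Pclo) the changes were 0.49 ± 0.20 in erinacine S and 0.39 ± 0.20 in DMSO (SE; limma adjusted p = 0.0818 and 0.157). Erc2, a scaffold that binds both, rose by 0.57 in erinacine S and 0.41 in DMSO.

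The glutamate transporters did not share the rise. Slc17a6 (ENSMUSG00000030500, chr7:51622006-51671119) had 28.6, 26.7 and 26.1 TPM in erinacine S at 48 h and 26.6, 40.9 and 34.5 TPM at 16 h, which overlapped, a change of -0.29 ± 0.14 (SE; limma adjusted p = 0.126). In DMSO it had 25.5, 26.1 and 27.7 TPM at 48 h, against 31.0, 41.6 and 34.9 TPM at 16 h, without overlap, and its change was -0.42 ± 0.14 (SE; limma adjusted p = 0.0365). It was named beyond the gene rule after its values were seen. Slc17a7 had -0.041 ± 0.18 in erinacine S and -0.12 ± 0.18 in DMSO (SE), and did not pass in either.

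All 3 genes of vesicle endocytosis rose in both treatments. Dnm1 (ENSMUSG00000026825, chr2:32308471-32353338), the neuronal dynamin that cuts vesicles from the membrane, had 128, 87.8 and 96.6 TPM in erinacine S at 48 h, against 56.6, 43.9 and 46.7 TPM at 16 h. In DMSO it had 90.4, 77.2 and 88.2 TPM at 48 h, against 48.9, 52.6 and 43.7 TPM at 16 h. The times did not overlap, and the rise was 1.06 ± 0.14 (SE; limma adjusted p = 0.000266) in erinacine S, where it had the smallest p of the 46 genes, and 0.80 ± 0.14 (SE; limma adjusted p = 0.00114) in DMSO. Snap91 (AP180), a clathrin adaptor, rose by 0.52 in erinacine S and 0.61 in DMSO. Amphiphysin (Amph), which recruits dynamin, rose by 0.59 in erinacine S and 0.58 in DMSO.

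Some of these calls were close to the threshold. Of the 32 genes called in erinacine S, 24 stayed called in each of the 6 fits that left out 1 of the libraries compared, and Bsn, Cplx2, Doc2a, Doc2b, Rab3a, Synpr, Syt1 and Syt13 lost the call in at least 1. The fewest, 25, were called without erinacine S 16 h replicate 2, where 19.9% of all genes were called in place of 30.6%. Without erinacine S 48 h replicate 1, 26 genes rose and Unc13b fell (25.5% of all genes called), with a median of 0.38 (all genes -0.031), and Bsn, Doc2b, Rab3a, Synpr and Syt13 were not called. Without it the fold change in erinacine S was 0.51 ± 0.12 (SE) for Syt1, 0.37 ± 0.078 (SE) for Rab3c, 0.24 ± 0.058 (SE) for Vamp2 and 0.23 ± 0.074 (SE) for Cplx2, all still called. Of the 34 genes called in DMSO, 22 stayed called in each such fit, and 12 lost the call in at least 1: Bsn, Erc2, Slc17a6, Stxbp5, Sv2c, Syp, Syt1, Syt3, Syt11, Syt13, Vamp1 and Vamp2. Vamp2 and Syp lost it in all 6, with limma adjusted p of 0.0555 to 0.0918 for Vamp2 and 0.0503 to 0.117 for Syp. The fewest, 23, were called without DMSO 48 h replicate 3, where 23.8% of all genes were called in place of 32.7%. The limma adjusted p ranged over 0.0263 to 0.125 for Slc17a6 and 0.0457 to 0.138 for Vamp1. Unc13b kept its call in every fit. By the deposited coordinates, Doc2a, Rab3a, Syn1, Syn2, Syn3, Syngr1, Syt3, Unc13a, Vamp1 and Dnm1 are overlapped by another expressed gene on the opposite strand. Sv2c is overlapped by one on its own strand, as is Unc13a, by the microRNA gene Mir6769b (2.76 TPM). Reads of such stretches could not be told apart where strand was not used.

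The mix of paralogs within families is given as levels, with pairs chosen after their values were seen and no test. For Syn1 to Syn2 and for Slc17a6 to Slc17a7, the ratios at the 2 times overlapped in both treatments. The ratio of Unc13a to Unc13b TPM was 3.77 ± 0.0761 in erinacine S at 48 h, 3.96 ± 0.304 in DMSO at 48 h, 1.85 ± 0.36 in erinacine S at 16 h and 1.79 ± 0.119 in DMSO at 16 h (SD, n = 3 each). The 2 times did not overlap for this ratio in either treatment. Vamp2 exceeded Vamp1 by 76.4 ± 7.85 times in erinacine S at 48 h, 87.3 ± 6.75 times in DMSO at 48 h, 53.1 ± 3.21 times in erinacine S at 16 h and 53.1 ± 2.69 times in DMSO at 16 h. Among the RIM genes, Rims2 held 27.2% of the TPM in erinacine S at 48 h and 26.9% in DMSO at 48 h, against 40.1% in erinacine S and 38.3% in DMSO at 16 h. Syt11 held 21.1% and 22.5% of synaptotagmin TPM in erinacine S and DMSO at 48 h, against 27.6% and 27.3% at 16 h. The ratio of Cplx1 to Cplx2 was 0.999 ± 0.0296 in erinacine S at 48 h, 1.14 ± 0.0551 in DMSO at 48 h, 0.877 ± 0.0224 in erinacine S at 16 h and 0.924 ± 0.155 in DMSO at 16 h. At 48 h this ratio was 0.965 to 1.02 in erinacine S and 1.07 to 1.17 in DMSO, without overlap.

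From a list of 82 further genes of the presynaptic pathway outside the 49, 79 were tested. In erinacine S 36 rose, 8 fell and 35 did not pass, which is 55.7% called, against 30.6% of all genes, with a median of 0.26. In DMSO 34 rose, 5 fell and 40 did not pass, which is 49.4% called, against 32.7% of all genes, with a median of 0.21. The difference between this list and the 46 genes was not tested. Slc18a2, the vesicular monoamine transporter, averaged 1.22 ± 0.0875 TPM in erinacine S at 48 h and 5.84 ± 0.490 TPM at 16 h (SD, n = 3 each), a change of -1.62 ± 0.12 (SE; limma adjusted p = 8.57e-06). In DMSO it averaged 1.29 ± 0.0257 TPM at 48 h and 5.57 ± 0.773 TPM at 16 h, a change of -1.52 ± 0.12 (SE; limma adjusted p = 1.26e-05). Rims4, another short RIM, rose by 1.36 in erinacine S and 1.36 in DMSO. Dnm3, a dynamin paralog, rose by 1.21 in erinacine S and 0.95 in DMSO. The SNAP25 relative Snap47 rose by 0.46 in erinacine S and 0.52 in DMSO. In erinacine S, the clathrin light chain gene Cltb rose by 0.46 and the vesicle transporter-like gene Svop by 0.53. In DMSO, Cadps, which primes dense core vesicles, rose by 0.90 and Apba1 (Mint1) by 0.82.

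Erinacine S itself was compared with DMSO at each time, in a series whose title concerns neuronal regeneration. At 16 h none of the 46 genes passed (limma), and 0 had an unadjusted p under 0.05. Over all genes 0% passed and 1.29% had an unadjusted p under 0.05. Fold changes were positive for 32 genes (53.7% of all genes) and negative for 14, with a median of 0.027 (all genes 0.0077). Without erinacine S 16 h replicate 1 the median was -0.0077 with 22 positive, and without replicate 2 it was 0.066 with 37 positive. The 5 genes with the smallest p were Stx1a, Rims2, Syt3, Sv2c and Syn3. Stx1a had 88.2, 80.9 and 80.5 TPM in erinacine S, against 91.1, 85.5 and 86.1 TPM in DMSO, a change of -0.073 ± 0.064 (SE; limma adjusted p = 1). The changes of the others were 0.13 ± 0.12 for Rims2, 0.13 ± 0.11 for Syt3, -0.20 ± 0.18 for Sv2c and 0.21 ± 0.24 for Syn3 (SE; limma adjusted p = 1 for each). Sv2c and Vamp2 were lower in all 3 erinacine S libraries than in all 3 DMSO libraries, as were 1.56% of all genes, and no gene of the 46 was higher in all 3, as were 2.62% (4.19% in either direction). Vamp2, named for this after its values were seen, had 355, 374 and 368 TPM in erinacine S, against 400.0, 388 and 383 TPM in DMSO, and its change was -0.094 ± 0.11 (SE).

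At 48 h none of the 46 passed either (limma), against 0.134% of all genes (0.0192% higher and 0.115% lower). Of the 46, 3 had an unadjusted p under 0.05, where 8.96% of all genes did. Fold changes were positive for 28 (52.5% of all genes) and negative for 18, with a median of 0.048 (all genes 0.0083). Doc2a was higher and Syt11 lower in all 3 erinacine S libraries than in all 3 DMSO libraries, as were 10.5% and 8.74% of all genes (19.3% in either direction). Both were named for this after their values were seen. Doc2a had 10.4, 10.9 and 9.50 TPM in erinacine S, against 8.89, 8.42 and 8.35 TPM in DMSO (0.24 ± 0.12, SE; limma adjusted p = 0.588). Syt11 had 195, 194 and 189 TPM in erinacine S, against 199, 206 and 210.0 TPM in DMSO (-0.086 ± 0.061, SE; limma adjusted p = 0.712).

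**Figure D4:**
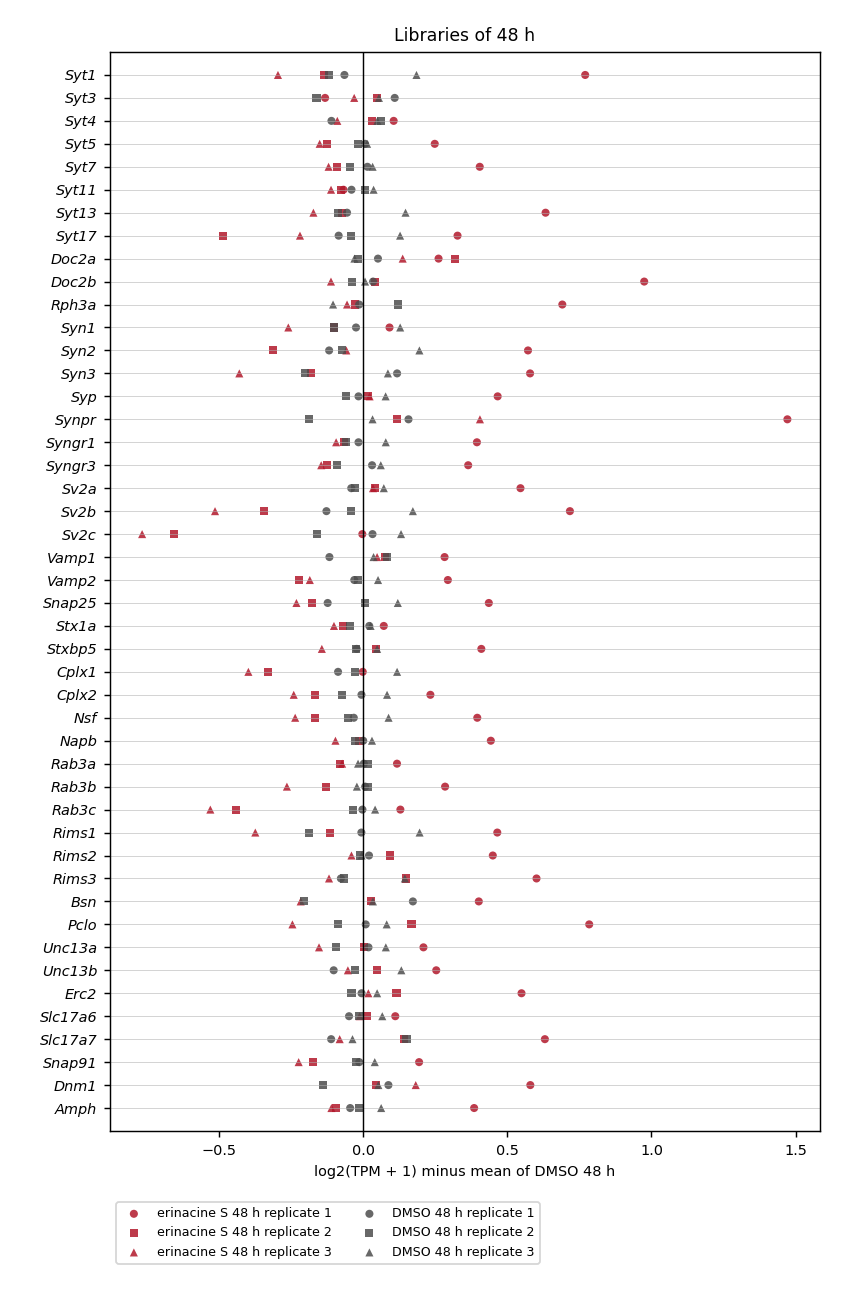
Difference of log2(TPM + 1) from the mean of DMSO 48 h (x axis) for the 46 tested presynaptic genes (y axis) in the 6 libraries of 48 h, with erinacine S in red, DMSO in grey and a symbol for each replicate. Erinacine S replicate 1 (red circles) is the rightmost point for 40 of the 46 genes, and erinacine S replicate 3 (red triangles) the leftmost for 29.

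By the median and the sum of the presynaptic genes, the erinacine S libraries of 48 h did not lie on the same side of DMSO. Replicate 1 was the highest of the 6 libraries of that time for 40 of the 46 genes, which it was for 35.9% of all genes. Replicate 3 was the lowest for 29 of the 46, which it was for 18.6% of all genes. The median difference from the DMSO mean was 0.39 in replicate 1, -0.074 in replicate 2 and -0.12 in replicate 3. Summed over the 49 genes, TPM were 5320.1 in replicate 1, 3979 in replicate 2 and 3843 in replicate 3 of erinacine S, against 4208, 4186 and 4484 in DMSO. The first of these was above the DMSO range and the other 2 below it.

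Markers of other cells also set replicate 1 of erinacine S at 48 h apart, and some were lower than in DMSO in the other 2 libraries as well. Its 8 astrocyte markers summed to 108.8 TPM, against 586 and 617 TPM in the other erinacine S libraries and 472 to 563 TPM in DMSO. Dividing cell and progenitor markers summed to 281 TPM, against 473 and 476 TPM in the other 2 and 498 to 524 TPM in DMSO. Its oligodendrocyte lineage markers summed to 66.5 TPM, against 174 and 187 TPM in the other 2 and 201 to 233 TPM in DMSO. Inhibitory neuron markers summed to 1705 TPM, against 738 and 734 TPM in the other 2 and 902 to 1207 TPM in DMSO. The 8 microglia markers summed to 1.60 TPM in replicate 1, with 1 marker at 0, and to 10.3 and 13.3 TPM in the other 2, against 22.3 to 31.4 TPM in DMSO. Of the 6 microglia markers tested at 48 h, 5 were lower in all 3 erinacine S libraries than in all 3 DMSO libraries, as were 6 of the 7 oligodendrocyte lineage markers and 8.74% of all genes, and the microglia marker C1qc passed (-1.48 ± 0.24, SE; limma adjusted p = 0.0413). General neuron markers did not separate replicate 1, at 5380.0 TPM, against 5315 and 5253 TPM in the other 2 and 5107 to 5517 TPM in DMSO. The part of these markers in the presynaptic values was not tested.

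**Figure D5:**
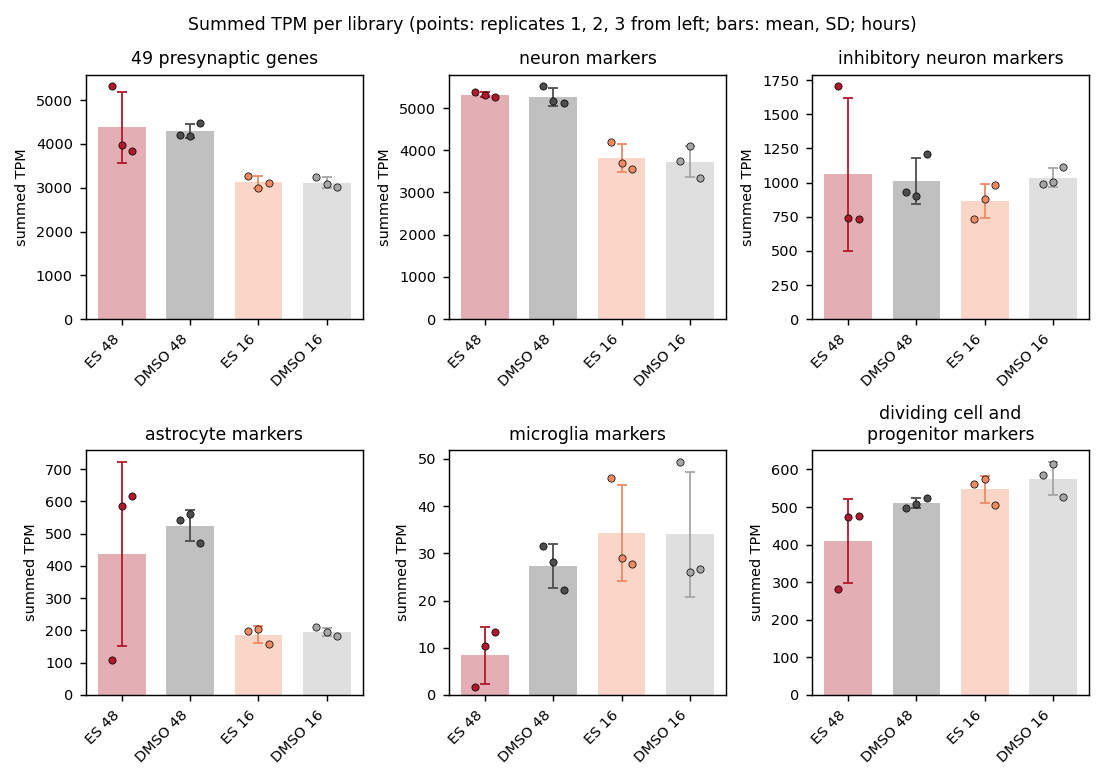
Summed TPM (y axis) of the 49 presynaptic genes and of markers of 5 kinds of cells in each library (points, replicates 1 to 3 from left), with bars for the group mean and error bars for the SD (n = 3), in erinacine S at 48 h, DMSO at 48 h, erinacine S at 16 h and DMSO at 16 h (ES, erinacine S). Replicate 1 of erinacine S at 48 h is the highest point for presynaptic genes (5320.1 TPM) and inhibitory neuron markers (1705 TPM) and the lowest of 48 h for astrocyte markers (108.8 TPM).

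With all libraries, the genes with the smallest p at 48 h were Sv2c, Cplx1, Synpr, Rab3c and Erc2, and none passed. Sv2c (ENSMUSG00000051111, chr13:95954594-96132577), the SV2 form known from basal ganglia, had 4.54, 2.52 and 2.26 TPM in erinacine S, against 4.68, 3.96 and 5.08 TPM in DMSO. Its change was -0.48 ± 0.18 (SE; 95% interval -0.88 to -0.076; limma adjusted p = 0.476). A gene model on the same strand, AC153134.1, lies inside the span of Sv2c with a mean of 32.2 TPM, so that reads of both could be confused. Cplx1 had 202, 161 and 153 TPM in erinacine S, against 190.4, 198 and 219.7 TPM in DMSO, a change of -0.24 ± 0.10 (SE; limma adjusted p = 0.52). Rab3c had a change of -0.28 ± 0.14 (SE; limma adjusted p = 0.587). For Synpr the change was 0.66 ± 0.30 and for Erc2 0.23 ± 0.11 (SE; limma adjusted p = 0.548 and 0.588), with replicate 1 the highest library for both.

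Without erinacine S 48 h replicate 1, 2 of the 46 genes were lower in erinacine S at 48 h and none was higher, against 0.73% of all genes in either direction. Rab3c then changed by -0.49 ± 0.078 (SE; limma adjusted p = 0.0173), with 93.5 and 87.7 TPM in the 2 remaining erinacine S libraries and 127, 124 and 131 TPM in DMSO. Sv2c changed by -0.71 ± 0.13 (SE; limma adjusted p = 0.0413), with 2.52 and 2.26 TPM against 4.68, 3.96 and 5.08 TPM in DMSO. Both remaining libraries were below all 3 of DMSO for these genes. Cplx1 had -0.36 ± 0.089 (SE; limma adjusted p = 0.13) and Vamp2 -0.20 ± 0.058 (SE; limma adjusted p = 0.228), which did not pass. Fold changes were then positive for 12 of the 46, with a median of -0.091 (all genes -0.0033), and 8 had an unadjusted p under 0.05. The share of all genes at that unadjusted threshold was not taken, so the 8 cannot be read as particular to the 46. After limma adjustment, 7 of all 15623 genes were higher and 107 lower without this library. The sign of the median depended on this library.

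For the difference between the erinacine S effects at 48 h and 16 h, the 5 genes with the smallest p were Cplx1, Vamp1, Rab3c, Dnm1 and Syt11. Their differences were -0.23 ± 0.15 for Cplx1, 0.22 ± 0.15 for Vamp1, -0.28 ± 0.19 for Rab3c, 0.25 ± 0.19 for Dnm1 and -0.10 ± 0.086 for Syt11 (SE; limma adjusted p = 1 for each). The 95% interval for Cplx1 was -0.55 to 0.096 and that for Dnm1 -0.16 to 0.67. Without erinacine S 48 h replicate 1, 6 genes had an unadjusted p under 0.05, a threshold at which the share of all genes was not taken. None passed, and the median of the 46 was -0.12 in place of 0.038. The median was also below 0 without DMSO 16 h replicate 1 (-0.0017) and without erinacine S 16 h replicate 2 (-0.015).

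Of the 79 tested genes of the wider presynaptic list, none passed at 16 h, at 48 h or in the difference (limma). At an unadjusted p under 0.05 there were 0 at 16 h (1.29% of all genes), 10 at 48 h (8.96%) and 2 in the difference (2.77%). With library weights, 14 of the 79 were called at 48 h, 3 higher and 11 lower, where 10.2% of all genes were called. At 48 h the smallest p were those of Sh3gl3, an endophilin of endocytosis, with 70.3 ± 3.68 TPM in erinacine S and 57.5 ± 1.43 TPM in DMSO (SD, n = 3 each), and of Prrt2, a regulator of release. Their changes were 0.28 ± 0.070 for Sh3gl3 and 0.51 ± 0.15 for Prrt2 (SE; limma adjusted p = 0.202 and 0.287).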

How the data were processed

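Total RNA of 12 libraries was measured, 3 in each of 4 groups taken from the sample titles. The authors deposited a table of TPM per gene with gene identifiers, symbols and GRCm38 coordinates. The submitters' processing notes name bcl2fastq 2.20, Trimmomatic 0.36, FastQC, HISAT2, SAMtools, StringTie 2.1.3 and the build GRCm38.p5, with no settings. The library kit was strand-specific, per the labels' protocols, and the strand setting of the quantification is not given in the sources used here. Deposited values of 0.0001 or less, the table's stand-in for 0, were read as 0. Depth is unknown.

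Genes averaging 1 TPM or more (15623) were taken as log2(TPM + 1) and tested with limma (version 3.58.1, R version 4.3.3): a mean for each group, moderated with a trend, two-sided, Benjamini-Hochberg adjustment over all genes, threshold 0.05. The code was tested on simulated data. Named genes are the called members, up to 30 by smallest p, or the 5 with the smallest p where fewer were called, and a few called genes of the wider presynaptic list. Members, lists, rule and tests were chosen with earlier results of these data known. Promoters are RefSeq's (GRCm38.p6).

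From the data and not the labels, replicate numbers seemed to pair the libraries at 16 h. Each same-numbered pair deviated together from its group means (r = 0.480, 0.185 and 0.510). Different-numbered pairs at 16 h had r from -0.448 to 0.109, the highest of which was not far from 0.185. Deviations from the mean of a group of 3 are tied to each other, so these r values are not independent. At 48 h the same-numbered values were -0.022, 0.107 and -0.192. The main fit used no pairing at either time, and a replicate block was only an alternative. Alternatives were pseudocounts of 0.1 and 5, no filter, a minimum of 5 TPM, median-ratio scaling, leaving mitochondrially encoded genes out of TPM, a replicate block, library weights, a fit to the compared libraries alone, and leaving out each library.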

Additional observations from a re-analysis of the deposited data

How the results depend on the processing

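No gene called in a time comparison changed direction under any alternative. Uncalled genes near 0 did, such as Rims2 in DMSO, at -0.0051 without DMSO 16 h replicate 1 and -0.016 without replicate 3. The count of presynaptic genes called for erinacine S against DMSO was 0 at 16 h under every alternative. At 48 h it was 5, all lower, with library weights, which gave erinacine S 48 h replicate 1 a weight of 0.195 (10.2% of all genes then passed), and 2 without that library. Otherwise it was 0, so leaving out each library gave 0 to 2. With the weights, Rab3c had -0.44, Sv2c -0.66 and Cplx1 -0.34, and the median of the 46 genes was -0.074 at 48 h and -0.049 at 16 h. The difference between times gave 0 throughout. For 48 h against 16 h, the count in DMSO was 28 with no filter (15.3% of all genes called) to 38 with only the libraries compared (34.1%), against 34 (32.7%), and 23 to 29 leaving out each library (21.8% to 29.3%). In erinacine S it was 26 with only the libraries compared (22.4%) to 36 with library weights (59.8%), against 32 (30.6%), and 25 to 34 leaving out each library (19.9% to 31.3%). Under all alternatives 22 of the 34 and 23 of the 32 calls held. The replicate block changed no call at 16 h (0 genes called) and, where the numbers do not pair the libraries, gave 33 genes in DMSO, without Vamp1, and 32 in erinacine S. Depth is unknown, and genes near 1 TPM, such as Syt13 and Syt17, are the least certain.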

Other observations

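Several presynaptic genes share their span with another expressed gene, and without the strand setting of the quantification their reads cannot be told apart with certainty. By the coordinates of the deposited table, 12 of the 49 genes are overlapped by a gene with a mean of at least 1 TPM. For 11 of them such a gene is on the opposite strand, and for 2, Sv2c and Unc13a, on the same strand. The synapsin genes each hold a gene of a tissue inhibitor of metalloproteinases on the opposite strand. Timp1 lies inside Syn1 (1.51 TPM, against 162 TPM for Syn1), Timp4 inside Syn2 (1.01 TPM, against 42.5 TPM) and Timp3 inside Syn3 (5.63 TPM, against 43.7 TPM). Unc13a overlaps the more abundant Colgalt1 (126 TPM, against 81.8 TPM), Dnm1 overlaps Ciz1 (120.2 TPM, against 71.7 TPM) and Doc2a overlaps Ino80e (85.1 TPM, against 8.20 TPM), all on the opposite strand. Syngr1 overlaps the ribosomal protein gene Rpl3 (562 TPM, against 70.5 TPM). These levels are means over the 12 libraries. The length of each shared stretch was not measured, so the levels do not say how many reads are affected. By the coordinates, Ciz1 and Rpl3 reach only the start of Dnm1 and of Syngr1 and do not span them.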
